A study of Mus musculus with 9 samples.

Results

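The 10 genes described here are made by the epithelium of the choroid plexus, the tissue inside the brain ventricles, and were followed in 9 RNA libraries of dissected mouse hippocampus as a measure of how much plexus each dissection held. They are Ttr, Otx2, Prlr, Clic6, Kl, Folr1, Aqp1, Kcne2, Kcnj13 and Enpp2, taken as the rows of the count table whose Ensembl identifier maps to these symbols in GENCODE M21. All 10 were among the 14779 genes of the table, and all 10 passed the filter on low counts that left 14696 genes. The rule that picks these rows uses no measured value, but the genes were chosen with earlier results of these data known.

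The study compared air, ethanol, and ethanol with an antibody against the cytokine IL-17A, and the antibody was given under ethanol only. Air+IgG mice breathed air and received an isotype control antibody, CIE+IgG mice had chronic intermittent ethanol exposure with the same control antibody, and CIE+IL17 Ab mice had the ethanol exposure with the antibody against IL-17A. Each group had 3 libraries from 3 mice, made from polyadenylated RNA with a stranded kit. All 3 groups share the receipt of an antibody, and the sources used here do not give strain, genotype, sex, age or the doses of antibody and ethanol. The p-values below judge group differences against the spread between libraries of a group, which can include differences in dissection as well as between mice.

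The choroid plexus is a sheet of epithelium over fenestrated capillaries that secretes the cerebrospinal fluid and forms the barrier between blood and that fluid. Its cells pump ions and water into the ventricle, carry folate and thyroid hormone across, and release transthyretin and klotho. The plexus of the lateral ventricle lies against the fimbria, beside the hippocampus, and neurons and glia of the hippocampus make little or none of most of these transcripts. Enpp2 is also made by oligodendrocytes, and Otx2 and Prlr are also made by some neurons outside the hippocampus.

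Library totals ranged from 7372658 to 11894628 counts, and no pair of libraries agreed within sampling noise. Markers of CA1 pyramidal neurons of the hippocampus were present in every library, with a summed level of 682 to 769 CPM (CPM is the count of a gene scaled to the size of its library, here with TMM factors) in Air+IgG, 487 to 720 in CIE+IgG and 167 to 303 in CIE+IL17 Ab. The 10 markers of thalamus and habenula summed to 81.6 to 99.0 CPM in Air+IgG, 96.1 to 205 in CIE+IgG and 674 to 1155 in CIE+IL17 Ab, so the 3 antibody libraries also stood apart in markers of the regions beside the hippocampus. Replicate 2 of Air+IgG held 7.13% of its counts, and replicate 1 of CIE+IL17 Ab 6.72%, in Lars2, a mitochondrial leucyl-tRNA synthetase gene, against at most 0.0207% in the other 7. The same 2 libraries were those lowest in plexus RNA. Each comparison of the 10 genes is given with and without them, as are most counts of calls on the wider lists.

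Promoter sequences in RefSeq (GRCm38.p6) were matched for 6 of the 10 genes, with 12 start sites among them. They are shown because these genes moved together across libraries, and because Otx2 is itself a transcription factor of the plexus, with TAATCC as the core of the site it is known to bind. The first 3 lines give the 250 bases before the start site that is also the start of the gene in GENCODE, for Kl at chr5:150952357-150952606 on the plus strand, Kcne2 at chr16:92292139-92292388 on the plus strand and Prlr at chr15:10176988-10177237 on the plus strand. No GENCODE exon falls in these 3 windows. The last line gives 30 bases on the minus strand at chr14:48665303-48665332, upstream of 1 of the 4 Otx2 starts, with GGATTA, the reverse complement of TAATCC, in capitals. That start lies 8710 bases inside the gene from its GENCODE start, and 2 GENCODE exons fall in the window before it.
Kl promoter: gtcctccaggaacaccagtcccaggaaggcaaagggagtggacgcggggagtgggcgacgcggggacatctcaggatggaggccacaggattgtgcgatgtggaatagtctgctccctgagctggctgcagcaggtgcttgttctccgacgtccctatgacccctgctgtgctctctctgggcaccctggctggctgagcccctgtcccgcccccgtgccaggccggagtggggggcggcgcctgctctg
Kcne2 promoter: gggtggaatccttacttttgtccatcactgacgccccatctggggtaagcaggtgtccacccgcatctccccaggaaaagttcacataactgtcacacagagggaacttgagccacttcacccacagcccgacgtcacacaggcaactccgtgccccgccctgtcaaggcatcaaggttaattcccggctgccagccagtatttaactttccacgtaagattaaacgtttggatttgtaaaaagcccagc
Prlr promoter: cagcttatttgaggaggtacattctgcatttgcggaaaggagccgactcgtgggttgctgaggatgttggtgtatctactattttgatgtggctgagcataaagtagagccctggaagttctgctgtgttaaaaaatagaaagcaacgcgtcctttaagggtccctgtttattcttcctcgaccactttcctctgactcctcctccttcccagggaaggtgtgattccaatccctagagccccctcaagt
Otx2 upstream site: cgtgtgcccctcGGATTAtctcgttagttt
TAATCC was searched on both strands in the 250 bases before each start. It was found before 1 of the 12 starts, the Otx2 start at position -211, and before none of the starts of Kl, Kcne2, Prlr, Aqp1 or Kcnj13. Among all promoters in the table, 6.25% of 32851 held it, and 7.21% of 27025 genes held it before at least 1 start. These counts describe the letters in the windows only.

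The secreted proteins gave most of the plexus RNA. Ttr encodes transthyretin, the carrier of thyroid hormone and of retinol-binding protein that the plexus releases into the cerebrospinal fluid. Its level was 3305, 427 and 2115 CPM in Air+IgG replicates 1, 2 and 3. In CIE+IgG it was 4412, 2656 and 5009 CPM. The antibody group, CIE+IL17 Ab, had 24.3, 6410 and 5144 CPM. The 3 groups overlapped, since the antibody group held both the highest and the lowest library, and the lowest Air+IgG library lay far below the other 2 of its group. In these bulk samples, fewer plexus cells and less RNA per cell cannot be told apart.

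Ttr alone took up 0.689% of all counts in CIE+IL17 Ab replicate 2 and 0.00237% in CIE+IL17 Ab replicate 1, where 175 counts were recorded. Together the 10 genes made up 0.587%, 0.0757% and 0.379% of the counts in the Air+IgG libraries. Their share was 0.723%, 0.447% and 0.829% in CIE+IgG. It was 0.0454%, 1.10% and 0.875% in CIE+IL17 Ab. The antibody group held both the highest and the lowest share, which lay 24-fold apart. In CIE+IL17 Ab replicate 1, Enpp2 gave 2706 of the 3349 counts of the 10 genes. The share of that library was thus mostly Enpp2, which oligodendrocytes also make.

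Enpp2 encodes autotaxin, the secreted enzyme that makes lysophosphatidic acid, and was the second most abundant of the genes. It measured 2054, 324 and 1332 CPM in Air+IgG. The CIE+IgG libraries held 2164, 1484 and 2266 CPM. The antibody libraries held 376, 2913 and 2515 CPM. The order of the libraries followed that of Ttr except that the lowest library was Air+IgG replicate 2. Kl encodes klotho, the co-receptor for the hormone FGF23, of which a shed form circulates in the cerebrospinal fluid. Its levels were 217, 57.4 and 134 CPM in Air+IgG. They were 265, 182 and 283 CPM in CIE+IgG, and 5.14, 321 and 280 CPM in CIE+IL17 Ab. Both genes overlapped between all 3 groups.

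The transcription factor on the list is Otx2, which encodes a homeodomain factor needed for the formation and upkeep of the plexus. It measured 19.1, 4.30 and 11.9 CPM in Air+IgG. It measured 25.1, 13.8 and 38.2 CPM in CIE+IgG, and 27.1, 44.2 and 32.9 CPM in CIE+IL17 Ab. The lowest antibody library lay above the highest Air+IgG library, so these 2 groups did not overlap, while CIE+IgG overlapped both. Otx2 was at 27.1 CPM in the antibody library in which Ttr was at 24.3 CPM.

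Prlr encodes the prolactin receptor, through which the plexus responds to prolactin. Its level was 86.0, 12.5 and 59.3 CPM in Air+IgG, 116, 65.4 and 123 CPM in CIE+IgG, and 23.2, 177 and 115 CPM in CIE+IL17 Ab. Folr1 encodes the folate receptor alpha that carries folate into the cerebrospinal fluid. Its level was 24.4, 2.29 and 17.8 CPM in Air+IgG, 36.7, 19.5 and 33.8 CPM in CIE+IgG, and 1.53, 50.2 and 37.5 CPM in CIE+IL17 Ab. Both receptors were highest in CIE+IL17 Ab replicate 2, and Folr1 was lowest in CIE+IL17 Ab replicate 1, where only 11 counts were recorded.

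The channel genes come next. Aqp1 encodes the water channel of the ventricular membrane of the plexus. It measured 23.3, 1.75 and 13.1 CPM in Air+IgG, 23.9, 17.8 and 37.2 CPM in CIE+IgG, and 0.278, 35.3 and 30.9 CPM in CIE+IL17 Ab. Kcne2 encodes a potassium channel accessory subunit. It measured 16.1, 1.75 and 9.09 CPM in Air+IgG, 19.2, 11.2 and 24.2 CPM in CIE+IgG, and 0.278, 24.9 and 25.7 CPM in CIE+IL17 Ab. Each was read 2 times in CIE+IL17 Ab replicate 1 and 13 times in Air+IgG replicate 2, so values there carry wide counting error.

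Kcnj13 encodes the inward rectifier Kir7.1, a potassium channel of the ventricular membrane. Its level was 43.6, 6.32 and 27.9 CPM in Air+IgG, 49.4, 33.5 and 64.1 CPM in CIE+IgG, and 3.06, 66.0 and 50.8 CPM in CIE+IL17 Ab. Of its 1270 exon bases, 623 overlap exons of Gigyf2 on the opposite strand, and the sources used here give no strand setting for the counting, so reads of the pair may not have been separated. Clic6 is a chloride intracellular channel protein whose RNA is concentrated in the plexus. Its level was 82.9, 10.4 and 47.1 CPM in Air+IgG, 124, 64.3 and 136 CPM in CIE+IgG, and 4.45, 159 and 140 CPM in CIE+IL17 Ab. For both genes all 3 groups overlapped.

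**Figure D1:**
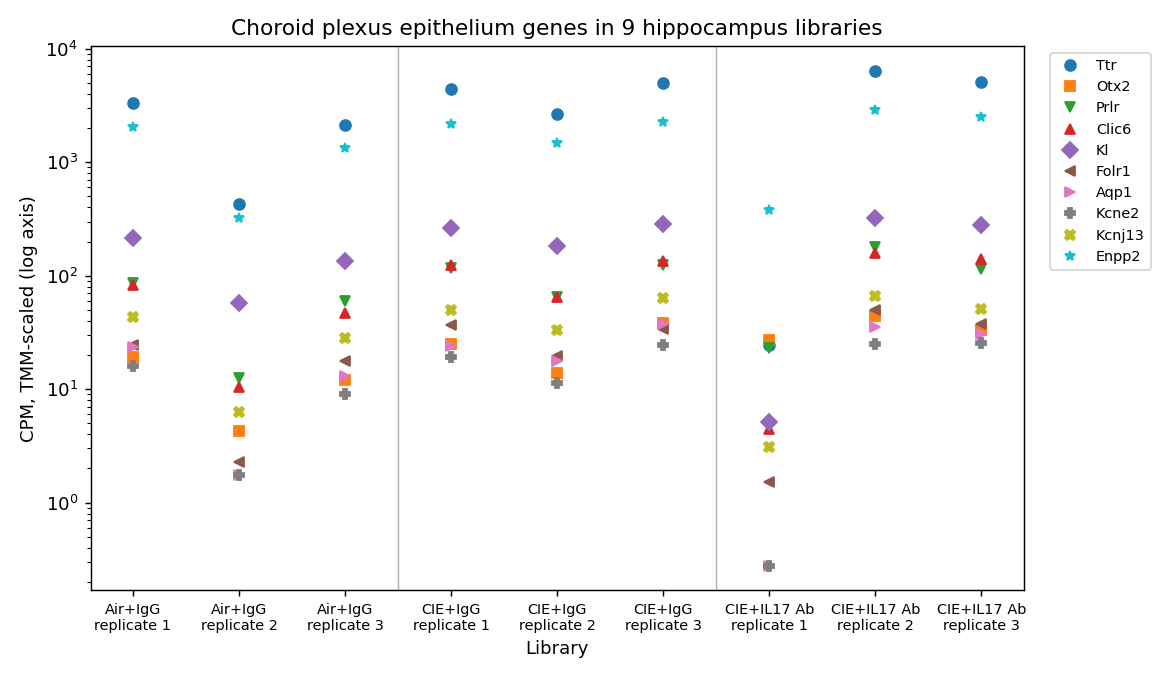
Level of each of the 10 plexus genes in the 9 libraries, in CPM on TMM-scaled library sizes (log axis), with 1 point per gene and library and vertical lines between the 3 groups. Replicate 2 of Air+IgG and replicate 1 of CIE+IL17 Ab lie below the other libraries for most genes, and Otx2 at 27.1 CPM stays in its usual range in CIE+IL17 Ab replicate 1.

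Levels between genes were compared per kilobase of exon, over the 7 libraries not rich in Lars2. The mean was 3499 CPM per kilobase for Ttr and 364 for Enpp2, each above the next gene in all 7 libraries. Kcnj13 followed with 37.7 CPM per kilobase, then Clic6 with 27.5 and Kl with 25.7. Clic6 and Kl did not differ beyond their spread, with a mean log2 difference of 0.03 ± 0.23 (SD, n = 7 libraries). Folr1 stood at 13.7 CPM per kilobase, Kcne2 at 10.6, Aqp1 at 9.87, Prlr at 6.91 and Otx2 at 6.27. Kcne2 and Aqp1 differed by 0.08 ± 0.15 on the log2 scale and Prlr and Otx2 by 0.20 ± 0.24, so neither of these neighbours could be placed in order. The lengths are those of all annotated exons together, and the 15339 bases counted for Prlr include exons of all its isoforms, which lowers its value.

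The genes kept nearly fixed proportions to Ttr in the 7 libraries. Per 1000 Ttr counts, Clic6 gave 22.3 to 28.0 counts, with a coefficient of variation of 7.9% against 39.6% for its CPM. Prlr gave 22.3 to 28.0 counts with a coefficient of variation of 7.8% against 38.1%. Folr1 gave 6.76 to 8.42 with 7.9% against 36.8%. For Clic6, Prlr and Folr1 the ratio to Ttr therefore spread several times less than the level itself, in libraries whose Ttr level ranged 3.03-fold. Kcne2 gave 3.88 to 5.00, Aqp1 5.43 to 7.43, Kcnj13 9.88 to 13.2 and Kl 50.02 to 68.5 counts per 1000 of Ttr. Their coefficients of variation were 9.2%, 12.0%, 11.8% and 11.0%, against 36.2%, 34.6%, 29.8% and 27.3% for their CPM.

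Otx2 and Enpp2 varied most against Ttr in these 7 libraries, with coefficients of variation of 13.7% and 14.3%, against 46.8% and 26.3% for their CPM. Enpp2 gave 622, 758 and 630 counts per 1000 of Ttr in the Air+IgG libraries. It gave 491, 559 and 452 in CIE+IgG, and 15460, 455 and 489 in CIE+IL17 Ab. All 3 air libraries lay above all 3 CIE+IgG libraries and above antibody replicates 2 and 3 in this ratio, a pattern noticed after the values were seen and not tested. Summed CPM of 14 oligodendrocyte and myelin genes moved the other way, at 4313 to 4903 in Air+IgG, 4924 to 7733 in CIE+IgG and 6532 to 7989 in CIE+IL17 Ab, and their part in the ratio was not tested.

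The proportions did not hold in the plexus-poor antibody library. There were, in CIE+IL17 Ab replicate 1, 1114 Otx2 counts, 954 Prlr counts, 183 Clic6 counts and 211 Kl counts per 1000 of Ttr. Aqp1 and Kcne2 each gave 11.4, from 2 counts. Air+IgG replicate 2, the other low library, stayed much closer to the 7 libraries, with 29.3 counts of Prlr, 24.3 of Clic6 and 10.1 of Otx2 per 1000 of Ttr, and with Kl at 135 as the member farthest from its range.

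Set against the mean CPM of the other 7 libraries, Air+IgG replicate 2 held between 6.74% (Aqp1) and 23.9% (Kl) of each gene, with a median of 11.1%. All 10 genes were thus under 25% there. CIE+IL17 Ab replicate 1 held 0.586% of Ttr, 1.07% of Aqp1, 1.49% of Kcne2 and 2.14% of Kl. It held 4.14% of Clic6, 4.86% of Folr1, 6.38% of Kcnj13, 17.9% of Enpp2 and 21.9% of Prlr. Otx2 alone was at 102% of the mean of the other 7 libraries.

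The same contrast was seen within the antibody group. The pooled level of CIE+IL17 Ab replicates 2 and 3 exceeded that of replicate 1 by a ratio of 241 for Ttr (95% exact interval 208 to 282). The ratio was 58.9 (42.7 to 83.8) for Kl and 33.9 (24 to 49.7) for Clic6. It was 6.48 (5.55 to 7.62) for Prlr, 7.30 (7.02 to 7.58) for Enpp2 and 1.45 (1.24 to 1.71) for Otx2. For the genes with 2 counts the intervals were wide, at 120 (33.2 to 995) for Aqp1 and 90.8 (25 to 752) for Kcne2. These intervals cover counting error only and compare single libraries.

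**Figure D2:**
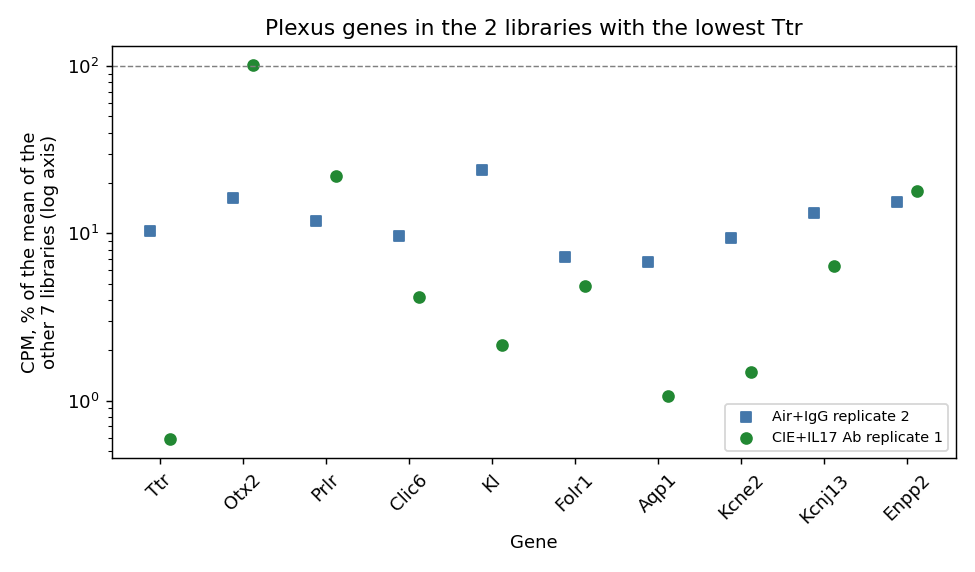
CPM of each plexus gene in Air+IgG replicate 2 (squares) and CIE+IL17 Ab replicate 1 (circles), as a percent of its mean over the other 7 libraries (log axis; the dashed line marks 100%). The squares lie between 6.74% and 23.9%, and the circles run from 0.586% for Ttr to 102% for Otx2.

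A further 41 genes of the plexus epithelium, none of them among the 10, were measured in the same libraries. In Air+IgG replicate 2 their median was 16.4% of the mean of the 7 libraries, with 10 of 41 under 10% and none over 100%. In CIE+IL17 Ab replicate 1 their median was 13.5%, with 17 of 41 under 10% and 2 over 100%. Those 2 were Htr2c, the serotonin receptor 2C, at 124% and Vat1l at 136%, and Htr2c is also made by neurons. Slc4a5, a bicarbonate cotransporter of the plexus, was at 3.34%, Cldn2, a tight junction protein of the plexus, at 5.71% and F5, coagulation factor V, at 1.93%. Steap1, Lmx1a and Prr32 had 0 counts in that library.

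The library with little Ttr and usual Otx2 was also one with high thalamic markers. The 10 markers of thalamus and habenula summed to 860 CPM in CIE+IL17 Ab replicate 1, and Tcf7l2, a transcription factor of thalamic neurons, was at 176 CPM there against 5.30 to 6.86 CPM in Air+IgG. Their part in the levels of Otx2, Htr2c and Vat1l was not tested.

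Over all 9 libraries, with the Lars2-rich pair included, the genes were among the most variable of the whole table within groups. Ttr ran from 24.3 to 6410 CPM over the 9 libraries. Without the pair it ranged 3.03-fold over 7 libraries, with a coefficient of variation of 36.8% across groups. The standard deviations and ranks that follow are for the 9 libraries only. The pooled within-group standard deviation of log2 CPM (6 residual degrees of freedom, prior count 2) had a median of 1.90 over the 10 genes, against 0.195 over all genes tested. Ttr had a standard deviation of 2.79 and ranked 6 from the top of 14696 genes. Aqp1 ranked 14, Kcne2 23, Kl 33, Clic6 45, Folr1 48 and Kcnj13 87, whereas Enpp2 ranked 197, Prlr 198 and Otx2 714. Differences between groups accounted for a median of 13.9% of the variance of the 10 genes and 36.9% of that of all genes tested. Otx2 was the exception, with 57.3% of its variance between groups.

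Across the 9 libraries the genes tracked one another, which is given as a description because the genes share the libraries and their depth. Pearson's r between log2 CPM values was 0.779 to 0.997 over the 36 pairs without Otx2, with a median of 0.972. It was 0.247 to 0.775 over the 9 pairs with Otx2, with a median of 0.507. In the 7 libraries without the Lars2-rich pair, r was 0.879 to 0.992 without Otx2 and 0.951 to 0.985 with Otx2. Otx2 thus followed the other genes in 7 libraries, and its r with them was lower over the 9. Of the Lars2-rich pair, Air+IgG replicate 2 was low in Otx2 as in the other genes, at 16.3% of the mean of the 7 libraries. CIE+IL17 Ab replicate 1 was not, at 102%.

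One level per library was formed as the mean deviation of the 10 genes on the log2 scale from their means over the 9 libraries. This plexus level was 0.61, -2.19 and -0.06 in Air+IgG, 0.94, 0.23 and 1.17 in CIE+IgG, and -3.25, 1.42 and 1.13 in CIE+IL17 Ab. The pooled within-group standard deviation was 1.75, larger than any difference between 2 of the libraries outside the Lars2-rich pair. The level of the 41 other plexus genes ran in parallel, at 0.39, -1.75 and -0.22 in Air+IgG, 0.66, 0.02 and 0.87 in CIE+IgG, and -2.06, 1.17 and 0.92 in CIE+IL17 Ab.

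The 15 genes outside the list that were most like the plexus level over the 9 libraries had r of 0.989 to 0.999. They were led by Slc4a5 (0.999), Cldn2 (0.998), Mfrp (0.996) and Oca2 (0.995), followed by F5, Abca4, Steap1, 1500015O10Rik, Sostdc1, Wdr86, Wfdc2, Tmem72, Col8a2, Krt18 and Trpv4. Of these, 11 were on the list of 41 other plexus genes. In the 7 libraries without the Lars2-rich pair, r of the 15 genes ran from 0.91 (Sostdc1) to 0.989 (1500015O10Rik). Slc4a5 measured 44.4, 4.03 and 22.7 CPM in Air+IgG, 51.3, 33.6 and 61.7 CPM in CIE+IgG, and 1.67, 72.6 and 63.1 CPM in CIE+IL17 Ab, the same order of libraries as Ttr. Over all genes outside the 10, r over the 9 libraries exceeded 0.9 for 185 of 14686, and for 31 of the 41 other plexus genes.

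Over the 9 libraries, with the Lars2-rich pair included, markers of the neighbouring cell types followed the plexus level to different degrees. Among 22 genes of the ependyma, the ciliated lining of the ventricles, the median r was 0.754, and 3 genes (Cfap126, Spag6l and Tekt1) passed 0.9. Their summed CPM was 120 to 223 in Air+IgG, 190 to 414 in CIE+IgG and 158 to 548 in CIE+IL17 Ab, and the lowest library in the air and in the antibody group was the plexus-poor one. The median r was -0.172 for 16 genes of meningeal fibroblasts, -0.185 for 10 of endothelium and 0.066 for 14 of myelin. Genes of the ventricular lining thus went with the plexus level more closely than did those of meninges, vessels or myelin.

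**Figure D3:**
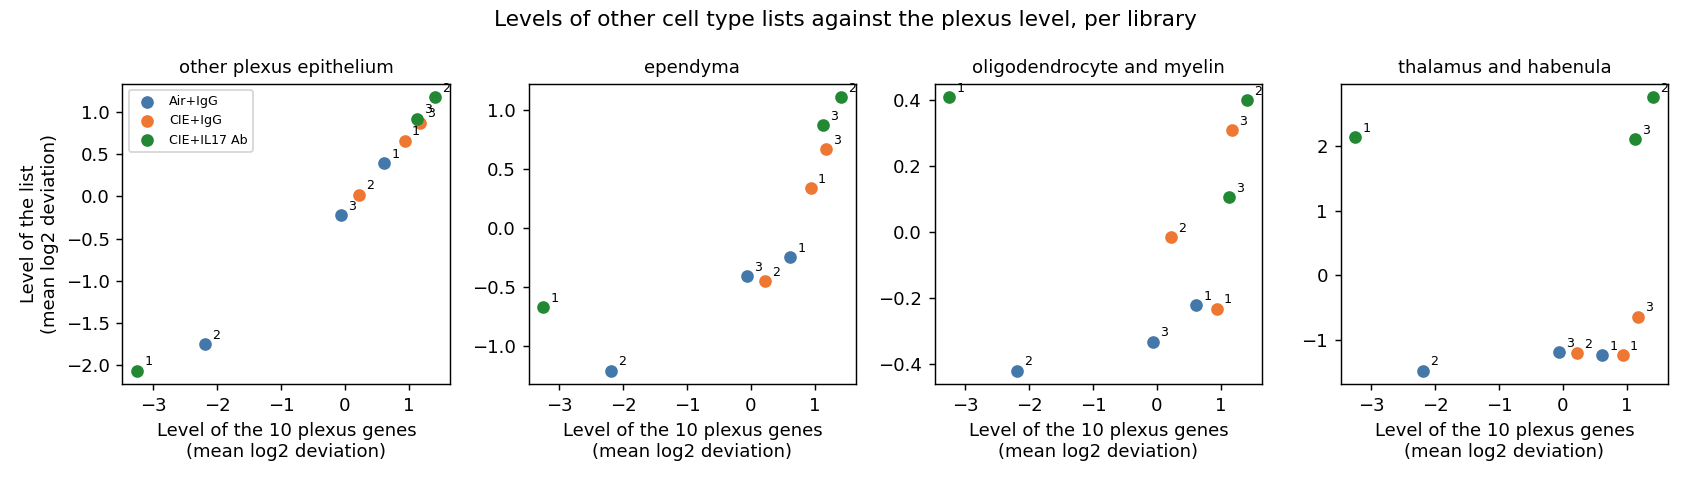
Level of 4 lists of cell type genes (vertical axes, mean log2 deviation) against the level of the 10 plexus genes (horizontal axes, same unit), with 1 point per library, colour for the group and the replicate number beside it. The other plexus genes lie close to a line and the ependyma list slopes the same way, whereas the thalamus and habenula list separates the antibody libraries (levels 2.11 to 2.76) at any plexus level.

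The first comparison, CIE+IgG minus Air+IgG, asks what the ethanol exposure changed under the control antibody. The 10 genes had log2 fold changes of 0.67 (Enpp2) to 1.20 (Clic6), with a median of 1.001 against -0.007 for all genes tested. Ttr differed by 1.05 (SE 1.32), at a mean of 4026 ± 1223 CPM (SD, n = 3) against 1949 ± 1446. None passed edgeR's quasi-likelihood test (adjusted p of 1 for each, Benjamini-Hochberg over all genes), and 0.0% of all genes tested were called, with 406 genes, or 2.76%, at an unadjusted p under 0.05 and none of the 10 among them. For none of the 10 were the groups free of overlap, against 9.44% of all genes. The values lay above 0 for 10 of 10 genes and for 48.0% of all genes, but the 10 share the same libraries and are not replicates of one another. Markers of other tissue moved in the same comparison, with a median of 1.62 and 12 of 12 above 0 for genes of the striatum and of -0.99 and 15 of 16 below 0 for genes of meningeal fibroblasts, though none of them was called. The summed CPM of the striatum genes was 262 to 272 in Air+IgG and 262, 266 and 1359 in CIE+IgG, where replicate 3 was the high one. The part of these tissues in the plexus values was not tested.

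The size of this difference depended on single air libraries. Without Air+IgG replicate 2 alone the median was 0.52. Without both Lars2-rich libraries the median was 0.53, with log2 fold changes of 0.22 (Enpp2) to 0.75 (Otx2) and adjusted p of 0.942 to 0.948 by the same test, which again called 0.0% of all genes. No gene then had groups free of overlap, against 10.1% of all genes with higher values. With Air+IgG replicate 1 left out instead, the median was 1.59.

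The second comparison, CIE+IL17 Ab minus CIE+IgG, asks what the antibody changed under ethanol. The log2 fold changes lay between -0.28 (Kcnj13) and 0.43 (Otx2), 3 above and 7 below 0 against 52.2% of all genes above 0, with a median of -0.07 against 0.015 for all genes. None of the 10 was called by edgeR's quasi-likelihood test (adjusted p of 0.656 to 0.999), against 3.18% of all genes, and all 10 overlapped between the groups, against 25.9% of genes free of overlap. Standard errors of 0.48 to 1.31 show how little this comparison could resolve. Ttr differed by -0.06 (SE 1.31), with means of 3860 ± 3381 and 4026 ± 1223 CPM (SD, n = 3 each).

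The direction of this comparison turned without the 2 Lars2-rich libraries. Its median became 0.47, and all 10 genes then lay above 0, from 0.25 (Kcnj13) to 0.58 (Otx2). For 5 of 10 genes the remaining groups did not overlap, with the antibody higher, against 21.8% of all genes. The antibody library left out was the one with the lowest plexus level, and the 10 genes are not replicates of one another. None passed edgeR's quasi-likelihood test (adjusted p of 0.275 to 0.648), against 2.56% of all genes.

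The third comparison, CIE+IL17 Ab minus Air+IgG, sets ethanol with the antibody against air and shares its groups with the other 2. The log2 fold changes ranged from 0.57 (Kl) to 1.55 (Otx2), with a median of 0.95 against 0.012 for all genes. Of all genes tested, 13.5% were called and none of the 10 was, with adjusted p of 0.0754 to 0.735 by edgeR's quasi-likelihood test. Otx2 came nearest, at 34.7 CPM against 11.8, a log2 fold change of 1.55 (SE 0.50) with an adjusted p of 0.0754, and DESeq2 called it (1.56, adjusted p 0.0109), where 19.0% of all genes were called. It was the single gene of the 10 with groups that did not overlap, against 17.3% of all genes higher in this way. Markers of thalamus and habenula were also higher in the antibody libraries, as given above, and their part in this value was not tested.

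Without the 2 Lars2-rich libraries, with 2 libraries left in each of these groups, the median was 1.01 and the range 0.68 (Enpp2) to 1.32 (Otx2). All 10 genes were then higher in every antibody library than in every air library, against 33.3% of all genes. The 2 libraries left out had the lowest plexus levels and were set aside after the data were seen. The 10 genes also share 1 set of libraries and are not replicates of one another, so these counts are a description only. Of the 10, 8 had an unadjusted p under 0.05, against 30.7% of all genes. None was called by edgeR's quasi-likelihood test (adjusted p of 0.0853 to 0.213), against 7.24% of all genes.

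The label numbers of the libraries fall into 37 to 39, with 1 library of each group, and 54 to 60, a numbering that the labels do not explain. Within the 6 libraries numbered 54 to 60 the medians were 0.73, -0.40 and 0.47 in the 3 comparisons, in the order above. The other block has 1 library a group and gives no test.

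**Figure D4:**
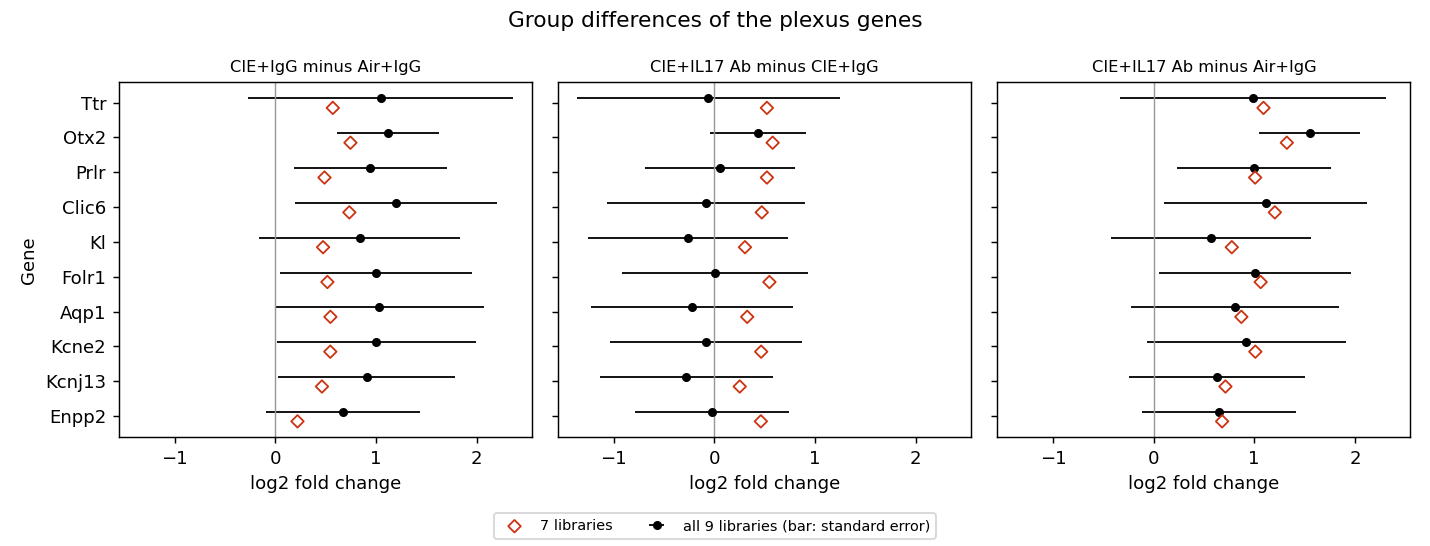
Log2 fold change of each plexus gene in the 3 comparisons over all 9 libraries (filled points; bars show the standard error) and without replicate 2 of Air+IgG and replicate 1 of CIE+IL17 Ab (open diamonds). The bars reach 0 or pass it for 4, 10 and 6 of the 10 genes in the order of the panels, and in CIE+IL17 Ab minus CIE+IgG the medians are -0.07 with and 0.47 without the 2 libraries.

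The wider lists of plexus function are read against the share of all genes called, which was 0.0% in CIE+IgG minus Air+IgG, 3.18% in CIE+IL17 Ab minus CIE+IgG and 13.5% in CIE+IL17 Ab minus Air+IgG. Without the Lars2-rich libraries these shares were 0.0%, 2.56% and 7.24%. No gene of any list was called in CIE+IgG minus Air+IgG, with or without those libraries. All calls are by edgeR's quasi-likelihood test.

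Of the 41 other plexus genes, none was called in CIE+IL17 Ab minus CIE+IgG, where the median was 0.002, or 0.48 without the Lars2-rich libraries. In CIE+IL17 Ab minus Air+IgG, 1 rose, Vat1l (log2 fold change 1.94, adjusted p 0.0496), a share below that of all genes, and the median was 0.82. Without the Lars2-rich libraries Vat1l had 1.60 (adjusted p 0.0966) and 2 others rose, Lmx1a, a transcription factor of the plexus and its precursor, by 1.38 and the keratin Krt8 by 1.82. Htr2c and Ace, with Vat1l the most abundant of the list, had 1.299 (adjusted p 0.151) and 0.79 (adjusted p 0.428) over 9 libraries.

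Of 24 genes of ion and water transport in fluid secretion, 1 rose in CIE+IL17 Ab minus CIE+IgG, Atp1b2, a beta subunit of the sodium pump that glia also make. It rose by 0.75 (adjusted p 0.0281), and by 0.61 (adjusted p 0.0378) without the Lars2-rich libraries. Against Air+IgG, 3 rose and 1 fell in CIE+IL17 Ab, a share near that of all genes called. Atp1b2 rose by 0.78 and Slc12a2, the cotransporter NKCC1, by 0.70, and both were also called without the Lars2-rich libraries (0.66 for each). Wnk1, a kinase that controls NKCC1, rose by 0.40 and the bicarbonate cotransporter Slc4a7 fell by 0.91 on the log2 scale, and neither was called without those libraries (adjusted p 0.0668 and 0.0671), where Slc4a10 was (-0.35, adjusted p 0.0493). Atp1b2 was at 522 CPM in the plexus-poor CIE+IL17 Ab replicate 1 and at 232 to 274 CPM in Air+IgG, so its level did not go with plexus content.

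Of 16 genes that handle thyroid hormone, retinol and folate, Thra, the thyroid hormone receptor alpha, fell by 0.72 on the log2 scale in CIE+IL17 Ab minus CIE+IgG (adjusted p 0.045), and had an adjusted p of 0.0791 without the Lars2-rich libraries. Against Air+IgG, 2 fell, again near the share of all genes. They were Thra, by 0.86, and Dio2, the deiodinase that activates thyroid hormone, by 0.72. Without the Lars2-rich libraries Dio2 was called (-0.85, adjusted p 0.0492) and Thra was not (-0.82, adjusted p 0.0529).

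Of 18 genes of klotho, prolactin and autotaxin signalling, none was called in CIE+IL17 Ab minus CIE+IgG and 3 rose in CIE+IL17 Ab minus Air+IgG, also near the share of all genes. These were Stat5b, a transcription factor downstream of the prolactin receptor, by 0.92, Lpar2, a lysophosphatidic acid receptor, by 1.45, and Fgfr2, a receptor that can pair with klotho, by 0.56. Without the Lars2-rich libraries their adjusted p were 0.0767, 0.0723 and 0.0972, and Stat5a was the 1 gene of the list called (1.57, adjusted p 0.0278). Stat5b was at 52.8, 48.4 and 47.3 CPM in the 3 antibody libraries, which differ widely in Prlr.

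No ependyma gene of 22 was called over the 9 libraries, with medians of 0.85, 0.40 and 1.303 in the same order of comparisons. The 3 most abundant, Dnah5, Cfap44 and Hydin, are genes of motile cilia and had log2 fold changes of 0.69, 0.85 and 1.503 in CIE+IL17 Ab minus Air+IgG, with adjusted p of 0.138, 0.239 and 0.105. Without the Lars2-rich libraries 5 of the 22 rose in that comparison, Dnah5 (0.92), Cfap44 (1.12), Pifo (2.09), Dynlrb2 (1.38) and Fam183b (1.56), against 7.24% of all genes.

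Markers of neighbouring tissue were also called in the antibody comparisons. Of 10 thalamus and habenula markers, 9 rose against CIE+IgG and 10 against Air+IgG, where 3.18% and 13.5% of all genes were called, and the counts were again 9 and 10 without the Lars2-rich libraries. Of 9 CA1 markers, 5 and 6 fell, and 2 and 4 fell without those libraries. Against Air+IgG, 11 of 14 myelin genes rose and 5 of 16 meningeal genes fell over 9 libraries, and 1 and 0 did so without the Lars2-rich libraries. No striatum gene of 12 was called in any comparison. Their part in the differences of the plexus genes was not tested.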

How the data were processed

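RNA from 9 hippocampus dissections, 3 in each of 3 groups, had been sequenced from stranded libraries of polyadenylated RNA, per the labels' protocols. The authors made expected counts (estimated reads per gene) without scaling across libraries and deposited them as 1 table; the tools were STAR 2.5.1a and RSEM 1.3.0 with the GRCm38 build, per the submitters' processing notes. The sources used here do not give their settings, the gene annotation used or whether low genes were removed. Of the values, 27.1% had decimals, and they were rounded to whole counts. RSEM-style estimates share ambiguous reads out, so genes with common sequence are uncertain.

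Groups followed the sample titles. Of 14779 identifiers, 14628 matched GENCODE M21. edgeR 4.0.16 in R 4.3.3 was run on all 14696 genes that passed filterByExpr (minimum count 10), with TMM scaling and 1 robust quasi-likelihood fit of the 9 libraries with a mean per group. P-values were adjusted by the Benjamini-Hochberg method over all genes tested, and genes under 0.05 were called. Log2 CPM used a prior count of 2. Library totals of 7372658 to 11894628 counts set the precision, and counts of 2 give wide intervals. The fit was also run on counts simulated independently for each gene. Those counts hold no shift shared by the plexus genes, so that run says nothing about such a shift.

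The 10 genes and all lists were chosen with earlier results of these data known. Genes named beside the 10 are the called genes of each list, otherwise its 3 most abundant, and the 15 with the highest r to the plexus level. Some were added after their values were seen, namely Slc4a5, Cldn2, F5, Steap1, Lmx1a, Prr32 and the genes over 100% in the plexus-poor library, Tcf7l2, and the genes with r over 0.9 in the other lists. Alternatives were DESeq2 1.42.0, limma-voom (limma 3.58.1), other scaling, filters, blocks, thresholds, a covariate and left-out libraries. For thalamus, CA1, striatum, myelin and meningeal lists counts and levels only are given.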

Additional observations from a re-analysis of the deposited data

How the results depend on the processing

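Of 654 fold changes of the 10 genes under alternatives, 594 kept their direction and their side of the threshold, 58 turned sign and 2 (Otx2 in CIE+IL17 Ab minus Air+IgG, 1.56 by DESeq2 and 1.55 at an adjusted p under 0.1) passed it. The cause was not tested. With the level of the other plexus genes as a covariate, the log2 fold changes in CIE+IgG minus Air+IgG were -0.83 for Ttr, -0.52 for Kl, -0.11 for Folr1, -0.21 for Aqp1, -0.23 for Kcne2, -0.12 for Kcnj13 and -0.040 for Enpp2. In CIE+IL17 Ab minus Air+IgG they were -1.73 for Ttr, -0.31 for Clic6, -1.21 for Kl, -0.34 for Folr1, -0.81 for Aqp1, -0.60 for Kcne2, -0.55 for Kcnj13 and -0.0034 for Enpp2, and in CIE+IL17 Ab minus CIE+IgG -0.23 for Folr1 and 0.037 for Enpp2. The medians of the 10 genes were then -0.12, -0.44 and -0.34. Of the 10, Kcnj13 was the 1 gene called (adjusted p 0.0246, edgeR quasi-likelihood, CIE+IL17 Ab minus Air+IgG). The share of all genes called with the covariate is not given here, so this call cannot be read against it. The covariate is built from the same libraries and from a tissue that holds the 10 genes too, so these are differences relative to other plexus genes. limma-voom gave -0.68 for Ttr and -0.55 for Kl in CIE+IL17 Ab minus Air+IgG, and -0.31 for Prlr and -0.66 for Folr1 in CIE+IL17 Ab minus CIE+IgG.

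The other turned values are all in CIE+IL17 Ab minus CIE+IgG, whose values are near 0. Folr1 had -0.015 by DESeq2, -0.0012 with 2 groups in the fit, -0.10 with the label numbers as a block and -0.51 in the libraries numbered 54 to 60. Prlr had -0.052 and -0.40 in the last 2 settings. Without the 2 Lars2-rich libraries, a setting chosen after seeing the data, the values were 0.52 for Ttr, 0.47 for Clic6, 0.30 for Kl, 0.33 for Aqp1, 0.46 for Kcne2, 0.25 for Kcnj13 and 0.46 for Enpp2. Leaving out 1 library at a time gave -0.64 to 0.52 for Ttr, -0.56 to 0.52 for Prlr, -0.57 to 0.47 for Clic6, -0.77 to 0.30 for Kl, -0.59 to 0.55 for Folr1, -0.72 to 0.33 for Aqp1, -0.48 to 0.47 for Kcne2, -0.84 to 0.25 for Kcnj13 and -0.45 to 0.46 for Enpp2. The medians of the 10 genes ranged over the left-out libraries from 0.52 to 1.59 in CIE+IgG minus Air+IgG, from -0.58 (without CIE+IL17 Ab replicate 2) to 0.47 (without CIE+IL17 Ab replicate 1) in CIE+IL17 Ab minus CIE+IgG, and from 0.39 (without CIE+IL17 Ab replicate 2) to 1.54 (without Air+IgG replicate 1) in CIE+IL17 Ab minus Air+IgG.

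Counts of genes called moved most. For CIE+IgG minus Air+IgG edgeR called 0, limma-voom 0 and DESeq2 6. For CIE+IL17 Ab minus CIE+IgG the 468 became 1481 by DESeq2, 1 with 2 groups in the fit, 776 with the label numbers as a block, 1 in the libraries numbered 54 to 60, 1293 at an adjusted p under 0.1, and 0 to 1313 with 1 library left out. For CIE+IL17 Ab minus Air+IgG the 1990 became 1192 with 2 groups in the fit, 2 in the libraries numbered 54 to 60, 3453 at an adjusted p under 0.1, 1067 without the Lars2-rich libraries, and 0 to 2305 with 1 library left out. Of the 10 genes, 1 was called in CIE+IL17 Ab minus Air+IgG by DESeq2, where 19.0% of all genes were called. At an adjusted p under 0.1 it was 1, and with the covariate 1, for which the share of all genes is not given here. None was called in the other settings run. The titles do not say whether equal replicate numbers pair the samples, and the main fit did not pair them. Between the deviations of same-numbered libraries r ran from -0.27 to 0.249, and between differently numbered ones from -0.253 to 0.279. Same-numbered libraries were thus no more alike, but deviations tied to the mean of so few libraries cannot show whether samples were paired. With the replicate block, 14 genes were called in CIE+IL17 Ab minus CIE+IgG and 571 in CIE+IL17 Ab minus Air+IgG, and Clic6 (0.026) and Enpp2 (0.040) turned sign in the former. Genes with 2 counts in CIE+IL17 Ab replicate 1, Aqp1 and Kcne2, are those whose level there the depth limits most.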

Other observations

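Igf2, a growth factor gene on the list of meningeal fibroblasts that the plexus also expresses, went with the plexus level and not with the rest of that list. It measured 151, 70.9 and 106 CPM in Air+IgG, 146, 94.0 and 177 CPM in CIE+IgG, and 28.6, 227 and 199 CPM in CIE+IL17 Ab. It was the 1 gene of the 16 with r over 0.9, and the lowest library of the air and of the antibody group was again the plexus-poor one. Among the 16 genes that handle thyroid hormone, retinol and folate, those with r over 0.9 included Rdh5, a retinol dehydrogenase, Slco1c1, a thyroid hormone transporter that brain endothelium also makes, and Slc19a1, the reduced folate carrier. Slco1c1 was at 37.9 CPM in the plexus-poor antibody library, against 84.4 CPM in CIE+IL17 Ab replicate 2. These genes were chosen after their values were seen.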
